A study of Mus musculus with 6 samples.

Results

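Mitochondrial ribosomal protein genes were followed in N2a cells, a mouse neuroblastoma line, after knockdown of *Npm1*. The members are all genes whose symbol begins with *Mrpl* or *Mrps* and a number, pseudogenes marked -ps left out. The rule gave 77 of the 26656 genes listed, 48 with a large subunit symbol (*Mrpl*) and 29 with a small subunit symbol (*Mrps*). The rule used the symbols and no values, but it was chosen with earlier results of these data known.

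The mitochondrial ribosome is a separate ribosome inside the organelle that makes the few proteins encoded by mitochondrial DNA, all of them subunits of the respiratory chain and the ATP synthase. Its RNAs come from mitochondrial DNA, while all of its proteins are encoded in the nucleus, made by cytosolic ribosomes and imported. The small subunit decodes the mRNA and the large subunit forms the peptide bond. NPM1 (nucleophosmin 1) is a nucleolar protein that takes part in making the cytosolic ribosome.

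The RNA-seq libraries were made to survey transcription when NPM1, and with it the histone mark H3K79me2, is altered. Wild-type N2a cells were transfected with the pLKO.1-shNpm1 plasmid, which carries 1 hairpin against *Npm1* (NPM1 KD, 3 libraries), or with the non-target plasmid pLKO.1-shCTR (CTR, 3 libraries), and RNA was taken after 72 h (3 days in vitro). The labels of both groups carry a protocol of selection with 9.3 µg/ml puromycin from 24 h in the knockdown experiments. With 1 hairpin, an effect of its own cannot be told apart from that of lower NPM1. The RNA was copied to cDNA, amplified by PCR and sequenced in long reads by nanopore.

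The values are regularized log (rlog) values, an expression score on the log2 scale that the authors normalized for library size and that pulls a gene with few reads towards its mean. Apart from values between -1 and 1 they are whole numbers, so that 1 step is a doubling and smaller differences appear only where a gene lies near the point at which rounding turns. A filter at log2 of 10 on the mean over the 6 libraries left 5752 genes to test, and 40.2% of them had one value in all 6 libraries. The relative depth of the libraries (size factor) was 1.24, 1.30 and 1.11 for the CTR libraries and 0.784, 0.833 and 0.961 for the NPM1 KD libraries, so that each knockdown library was shallower than each control library. *Npm1* (ENSMUSG00000057113) measured 10 in each CTR library and 8 in each NPM1 KD library, a log2 difference of -2 (SE 0.33, limma, Benjamini-Hochberg adjusted p = 3.23e-06). Among 12 markers of N2a and sympathetic neuroblast cells 7 passed the filter, while of 12 markers of fibroblasts, glia, leukocytes and endothelium 0 passed and 7 were listed at 0 throughout. In 4 of the 7 N2a markers (*Isl1*, *Tubb3*, *Stmn2* and *Chga*) all NPM1 KD values lay below all CTR values, and the part of this shift in the values of the *Mrp* genes was not tested.

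No *Mrp* gene passed the test, and no tested member rose by more than 1.00 on the log2 scale. A rise of 1.00 gave a limma adjusted p of 0.0791 whether the groups overlapped (*Mrpl20*) or not (*Mrpl46* and *Mrpl50*). The test could thus not call a member that moved by 1 step or less, and the lack of calls does not show unchanged RNA. Of the 77 members, 71 were tested (45 *Mrpl* and 26 *Mrps*), and limma called 0 higher and 0 lower at an adjusted p of 0.05, where 0.0695% of all genes tested were called higher and 0.417% lower. At an unadjusted p of 0.05 there were 6 members with higher values in NPM1 KD and 0 with lower values, against 6.07% and 8.07% of all genes tested. The 6 were *Mrpl20*, *Mrpl46*, *Mrpl50*, *Mrpl16*, *Mrps23* and *Mrps25*, and their number was 2 without CTR replicate 1 and 3 without CTR replicate 2 or without NPM1 KD replicate 3. With a library left out, the share of all genes tested at this p is not given here. In bulk RNA a change in the kind of cells and a change in RNA per cell cannot be told apart.

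The group means of the members lay more often above than below those of CTR. The NPM1 KD mean was the higher of both in 30 of the 71 members (42.3%), the lower in 5 (7.04%) and equal in 36 (50.7%). Over all genes tested 24.6% had a higher, 27.4% a lower and 48% an equal mean. The median log2 difference was 0 for the members and for all genes tested, since rounding left so many genes equal between groups. Without CTR replicate 1, the library that stood lowest for these genes, 26 had a higher and 9 a lower mean. The count with a lower mean was also 9 without CTR replicate 2, and 8 without NPM1 KD replicate 1.

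**Figure D1:**
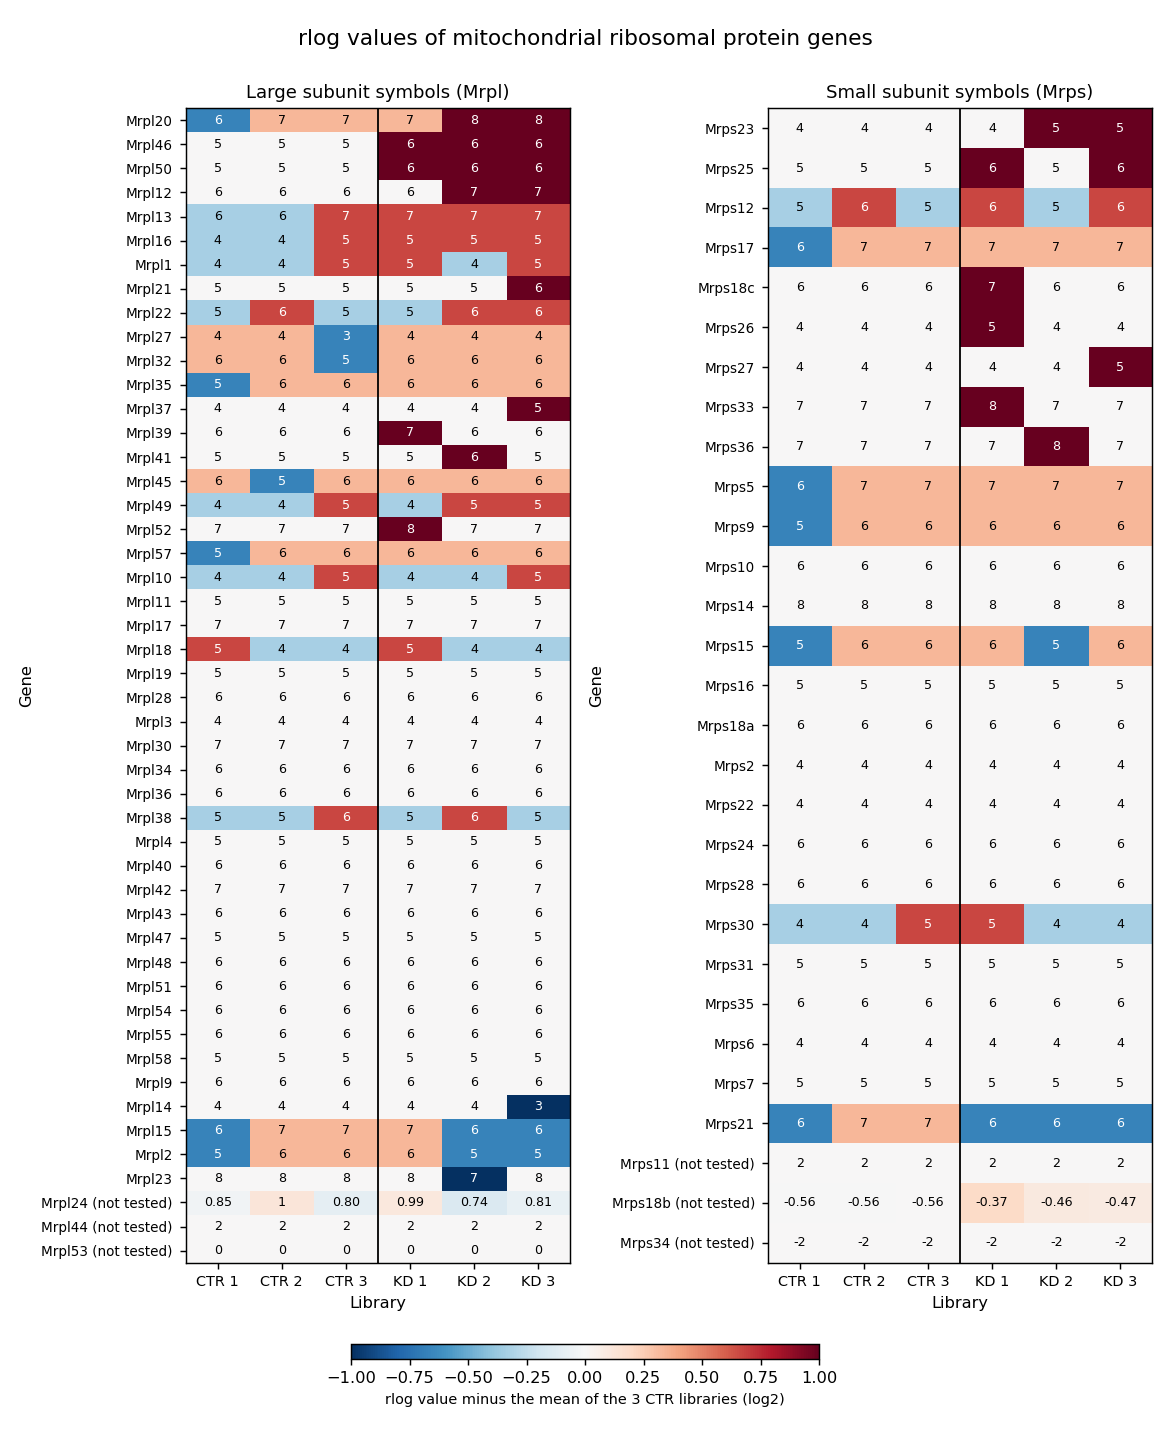
Each cell holds the rlog value (log2 scale) of 1 gene in 1 library, coloured by its difference from the CTR mean of the gene, with the *Mrpl* genes on the left, the *Mrps* genes on the right and each side ordered by log2 difference. Of the 71 tested genes 31 hold one number in all 6 libraries, and *Mrpl46* and *Mrpl50* are the 2 tested genes in which every NPM1 KD value exceeds every CTR value.

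Averaging over the members shows differences smaller than 1 rounding step. The mean rlog value of the 71 members was 5.41, 5.55 and 5.61 in the CTR libraries and 5.72, 5.63 and 5.70 in the NPM1 KD libraries. All 3 NPM1 KD libraries lay above all 3 CTR libraries, with group means of 5.52 ± 0.102 and 5.69 ± 0.0453 (SD, n = 3 each) and a difference of 0.16 on the log2 scale. The highest CTR and the lowest NPM1 KD library were separated by less than the spread within CTR. Over all genes tested the library means were 5.31, 5.31 and 5.31 in CTR against 5.30, 5.27 and 5.29 in NPM1 KD, a difference of -0.02. CTR replicate 1 was the lowest library for the members, and without it their difference was 0.11.

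That library stood apart in single genes as well. *Mrpl35*, *Mrpl57*, *Mrps5*, *Mrps9* and *Mrps17* had one value in the other 5 libraries and were 1 step lower in CTR replicate 1. In the opposite direction, NPM1 KD replicate 1 alone was 1 step higher in *Mrpl39*, *Mrpl52*, *Mrps18c*, *Mrps26* and *Mrps33*. A mean difference of 0.33 in a single gene is therefore 1 library moved by 1 step, or 1 more library at the upper value in NPM1 KD than in CTR, and 22 of the 30 higher members had this size.

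**Figure D2:**
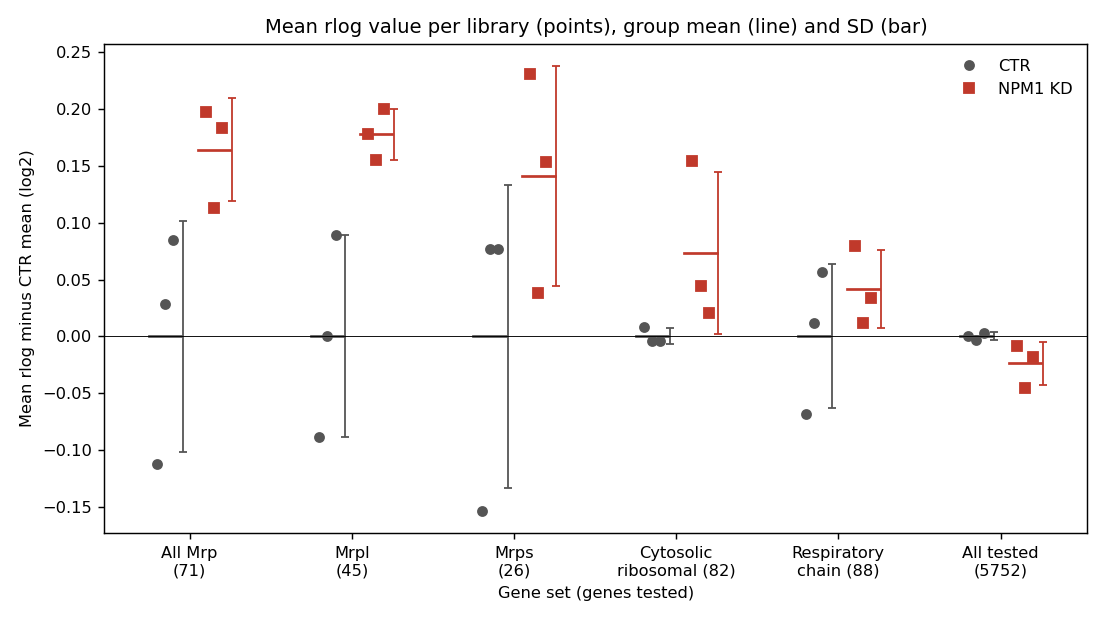
Points give the mean rlog value of a gene set in each library, minus the mean of the 3 CTR libraries for the same set (log2 scale), with lines for group means and bars for the SD (n = 3). The NPM1 KD points of all members, of the *Mrpl* genes and of the cytosolic ribosomal protein genes lie above their CTR points without overlap, those of all genes tested lie below, and those of the *Mrps* and the respiratory chain genes overlap CTR.

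The 3 leading large subunit genes had the largest differences, each 1.00 on the log2 scale. *Mrpl46* (ENSMUSG00000030612), a protein of the large subunit, had an rlog value of 5 in every CTR library and 6 in every NPM1 KD library. *Mrpl50* (ENSMUSG00000044018), a large subunit protein without a bacterial counterpart, had the same 6 values. The groups did not overlap in either gene, and limma gave an SE of 0.34 and an adjusted p of 0.0791 for both. These 2 of 71 members were the ones without overlap in the higher direction, where 2.19% of all genes tested had none. Their number was 4 without CTR replicate 3 and 5 without NPM1 KD replicate 1. Lack of overlap is reached more easily with 2 libraries in a group. The share of all genes tested in these settings is not given here, so these counts cannot be set against 2.19%. In the lower direction 0 members and 3.41% of all genes tested had no overlap.

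*Mrpl20* (ENSMUSG00000029066), a counterpart of the bacterial ribosomal protein of the same number, had 6, 7 and 7 in CTR against 7, 8 and 8 in NPM1 KD. Its groups met at 7, and limma gave an SE of 0.35 and an adjusted p of 0.0791. It was the only tested member with values 2 steps apart. The authors' mean normalized counts over both groups were 47.0 for *Mrpl46*, 44.6 for *Mrpl50* and 158 for *Mrpl20*. On the log2 scale they lie 0.44, 0.48 and 0.30 from a whole number, near the turning point of rounding for the first pair, so that in these 2 genes the unrounded difference may be well below 1 step.

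The RefSeq promoter table (build GRCm38.p6) held 68 of the 77 members, and the 250 bases before the start are shown for these 3 genes and for *Mrps11*, whose start faces that of *Mrpl46* so that their windows share bases on opposite strands. Each line runs 5′ to 3′ on the strand of the gene. The windows are chr4:49521084-49521333 (minus strand) for *Mrpl50*, chr7:78783090-78783339 (minus strand) for *Mrpl46*, chr7:78782881-78783130 (plus strand) for *Mrps11* and chr4:155802628-155802877 (plus strand) for *Mrpl20*. Capitals mark any of 6 motifs searched on both strands, none of which contains another: the ETS family motif CCGGAAG, the NRF1 motif GCATGCGC, the YY1 motif AAGATGGC, the E-box CACGTG, the TATA box TATAAA and the CCAAT box CCAAT.
Mrpl50: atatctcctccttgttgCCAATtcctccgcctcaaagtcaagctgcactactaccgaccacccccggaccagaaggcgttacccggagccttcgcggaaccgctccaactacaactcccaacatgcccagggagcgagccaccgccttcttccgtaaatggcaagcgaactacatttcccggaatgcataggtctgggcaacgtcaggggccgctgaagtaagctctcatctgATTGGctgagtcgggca
Mrpl46: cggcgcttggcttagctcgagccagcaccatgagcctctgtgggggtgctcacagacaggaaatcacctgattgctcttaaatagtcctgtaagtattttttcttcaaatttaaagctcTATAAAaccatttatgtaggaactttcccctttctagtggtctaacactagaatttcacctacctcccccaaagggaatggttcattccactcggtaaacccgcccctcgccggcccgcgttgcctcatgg
Mrps11: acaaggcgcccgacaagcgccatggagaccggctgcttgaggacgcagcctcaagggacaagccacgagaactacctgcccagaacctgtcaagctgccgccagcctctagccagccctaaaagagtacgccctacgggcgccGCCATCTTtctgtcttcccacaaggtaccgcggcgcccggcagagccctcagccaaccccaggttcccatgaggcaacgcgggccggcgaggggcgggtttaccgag
Mrpl20: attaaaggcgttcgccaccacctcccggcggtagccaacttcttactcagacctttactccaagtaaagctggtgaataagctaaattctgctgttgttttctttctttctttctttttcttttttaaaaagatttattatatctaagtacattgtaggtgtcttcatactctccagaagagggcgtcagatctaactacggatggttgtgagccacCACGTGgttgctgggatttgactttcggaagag
The capitals are a CCAAT box on each strand in *Mrpl50*, a TATA box in *Mrpl46*, a YY1 motif on the other strand in *Mrps11* and an E-box in *Mrpl20*. The 3 genes with the largest differences thus had no motif in common in these windows, although *Mrpl20* also has a CCAAT box within the 50 bases after its start.

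Several of these motifs were frequent among the members. Over the window from 250 bases before to 50 after the start, the ETS motif was found in 25 of 68 members (36.8%), in 24.2% of the 4334 tested genes with a promoter and in 9.93% of all 27025 genes of the promoter table. The YY1 motif was in 17.6% of members, 7.2% of tested genes and 3.19% of all genes. For NRF1, named nuclear respiratory factor for its place in mitochondrial gene control, the shares were 10.3%, 7.59% and 3.05%. An E-box was present in 7.35%, 13.1% and 8.09%, a TATA box in 7.35%, 8.05% and 15.7%, and a CCAAT box in 38.2%, 43.7% and 41.1%. A motif of ETS, NRF1 or YY1 stood in 16 of the 29 members with a promoter and a higher group mean (55.2%), in 17 of the 30 with an equal mean (56.7%) and in 1 of the 4 with a lower mean (25%). The shares of higher and of equal members were alike. Whether a member counted as higher or equal depended in part on rounding, so these shares do not set changed against unchanged members. These matches are letters in a window, not sites shown to be bound.

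**Figure D3:**
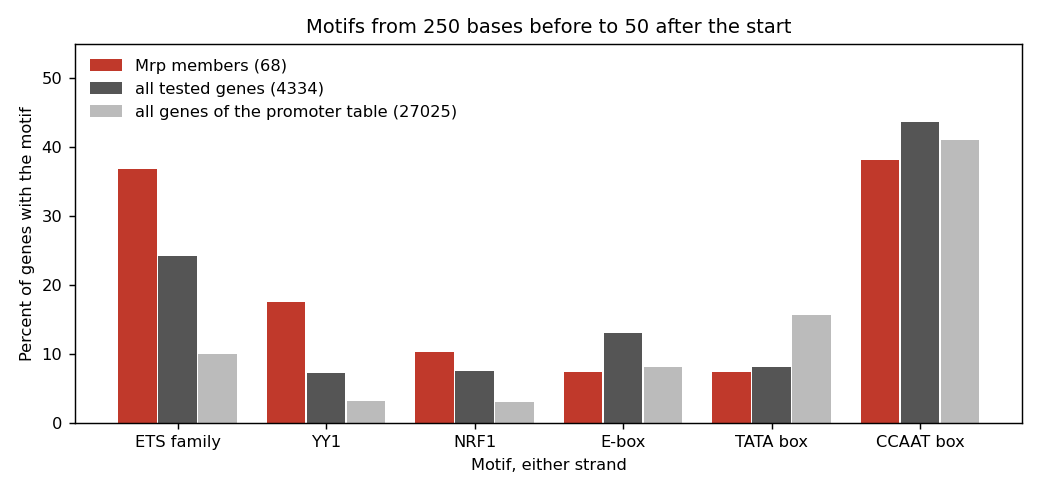
Bars give the percent of genes with each motif on either strand, from 250 bases before to 50 bases after the start, for the 68 members with a promoter, the 4334 tested genes with one and the 27025 genes of the promoter table. The ETS, YY1 and NRF1 bars of the members stand above both others, at 36.8%, 17.6% and 10.3%.

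Among the other large subunit genes, *Mrpl12* encodes the stalk protein that contacts translation factors and has been described to bind the mitochondrial RNA polymerase. It had 6 in all CTR libraries and 6, 7 and 7 in NPM1 KD, with a log2 difference of 0.67 (SE 0.34, limma adjusted p = 0.33). *Mrpl13* had 6, 6 and 7 against 7, 7 and 7 and the same difference. *Mrpl16* had 4, 4 and 5 against 5, 5 and 5, again 0.67 with an adjusted p of 0.33 in limma. In each of these 3 genes, all of which have bacterial counterparts, the groups shared 1 value. *Mrpl10*, at the base of the stalk, was at 4, 4 and 5 in both groups. *Mrpl11*, next to the stalk, was at 5 in all 6 libraries, and so did *Mrpl58*, a peptidyl-tRNA hydrolase built into the large subunit. *Mrpl3*, which reaches towards the peptidyl transferase centre, was at 4 in all.

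Lower means were seen in 4 *Mrpl* genes, each by 0.33 on the log2 scale and each at a limma adjusted p of 0.71. *Mrpl14* had 4, 4 and 4 in CTR against 4, 4 and 3 in NPM1 KD, and *Mrpl23*, a protein at the exit of the peptide tunnel, had 8, 8 and 8 against 8, 7 and 8. *Mrpl15* had 6, 7 and 7 against 7, 6 and 6. *Mrpl2*, a core protein of the large subunit, had 5, 6 and 6 against 6, 5 and 5. The groups overlapped in all 4, and without NPM1 KD replicate 3 the values of *Mrpl14*, or without replicate 2 those of *Mrpl23*, were equal between groups. The pseudogene *Mrpl23-ps1*, listed separately and outside the rule, was at 8 in all 6 libraries, and reads of *Mrpl23* and of this copy may not be told apart by the counting.

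In the small subunit the differences reached 0.67 in either direction. *Mrps23*, one of the proteins that mitochondrial ribosomes have gained over bacterial ones, had 4, 4 and 4 in CTR against 4, 5 and 5 in NPM1 KD. *Mrps25*, also such a protein, had 5, 5 and 5 against 6, 5 and 6. Both had a limma SE of 0.33 and an adjusted p of 0.33, and their groups overlapped. Of the exonic bases of *Mrps25* 69.8% are shared with *Nr2c2* on the other strand in GENCODE M21, and it is not stated whether the counting used strand, so that reads of the pair may not be separable. *Mrps21*, a counterpart of the bacterial protein of the same number, had the largest fall of any member. Its values were 6, 7 and 7 in CTR against 6, 6 and 6 in NPM1 KD, with a log2 difference of -0.67 (SE 0.34, limma adjusted p = 0.33). Without CTR replicate 1 its groups no longer overlapped, and the log2 difference was -1.

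Other small subunit genes of known role showed differences of at most 0.33 on the log2 scale. *Mrps12*, a protein of the decoding centre, had 5, 6 and 5 in CTR against 6, 5 and 6 in NPM1 KD. *Mrps16* was at 5 in all 6 libraries, *Mrps22* at 4 and *Mrps35* at 6. The 3 *Mrps18* genes encode related proteins in different places. *Mrps18c* had 6 in all CTR libraries and 7, 6 and 6 in NPM1 KD, *Mrps18a* was at 6 throughout and *Mrps18b* fell below the filter. *Mrps18a* and *Mrps30*, in spite of their symbols, are built into the large subunit, and *Mrps30* had 4, 4 and 5 against 5, 4 and 4. *Mrps36*, now placed in the α-ketoglutarate dehydrogenase complex, had 7, 7 and 7 against 7, 8 and 7.

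Large and small subunit genes were not separated by the data. The NPM1 KD mean was higher in 19 of 45 *Mrpl* genes, lower in 4 and equal in 22, and higher in 11 of 26 *Mrps* genes, lower in 1 and equal in 14. The mean rlog value of the *Mrpl* genes was 5.44, 5.53 and 5.62 in CTR against 5.71, 5.69 and 5.73 in NPM1 KD, without overlap and with a difference of 0.18. That of the *Mrps* genes was 5.35, 5.58 and 5.58 against 5.73, 5.54 and 5.65, with overlap and a difference of 0.14. The *Mrps* difference rested largely on CTR replicate 1, without which it was 0.06, while the *Mrpl* difference was then 0.13. The *Mrpl* mean minus the *Mrps* mean was 0.10, -0.04 and 0.05 in the CTR libraries and -0.02, 0.15 and 0.08 in the NPM1 KD libraries. Its group means were 0.0333 ± 0.0717 and 0.0701 ± 0.0854 (SD, n = 3 each), so that the difference of 0.04 was smaller than the spread between libraries. With *Mrps30* and *Mrps18a* counted in the large subunit and *Mrps36* in neither, the differences were 0.17 and 0.14.

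Whether a member varied at all went with its distance from a turning point of rounding. Of the 31 tested members with one value in all libraries, 23 had a log2 mean normalized count within 0.25 of a whole number. Of the 40 that varied, 35 lay farther than 0.25 from one. *Mrps14*, which had the highest mean normalized count of the tested members (204), was at 8 in all 6 libraries, and *Mrpl27*, which had the lowest (12.5), was at 4, 4 and 3 in CTR and 4 in each NPM1 KD library. The median mean normalized count was 50.6 for tested members and 28.4 for all tested genes, counts that are not scaled to length.

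The members had a larger share of higher means than cytosolic ribosomal protein genes or respiratory chain genes had. Of 82 tested cytosolic ribosomal protein genes 21 had a higher, 9 a lower and 52 an equal mean, with a mean log2 difference of 0.07. Their mean rlog value was 10.27, 10.26 and 10.26 in CTR against 10.41, 10.30 and 10.28 in NPM1 KD. All 3 NPM1 KD libraries lay above CTR, as they did for the members, but the lowest by little (10.28 against 10.27). Of 88 tested nuclear-encoded subunits of the respiratory chain and ATP synthase 23 had a higher, 16 a lower and 49 an equal mean, with a mean log2 difference of 0.04. In these groups 3 (3.66%) and 3 (3.41%) genes were higher without overlap, where 2.19% of all genes tested were. Lower without overlap were 1 (1.22%) and 2 (2.27%), against 3.41% of all genes tested. All 3 sets come from the same 6 libraries, the cytosolic set had a median mean normalized count of 1673 and the respiratory set of 217, and the difference between the sets was not tested.

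**Figure D4:**
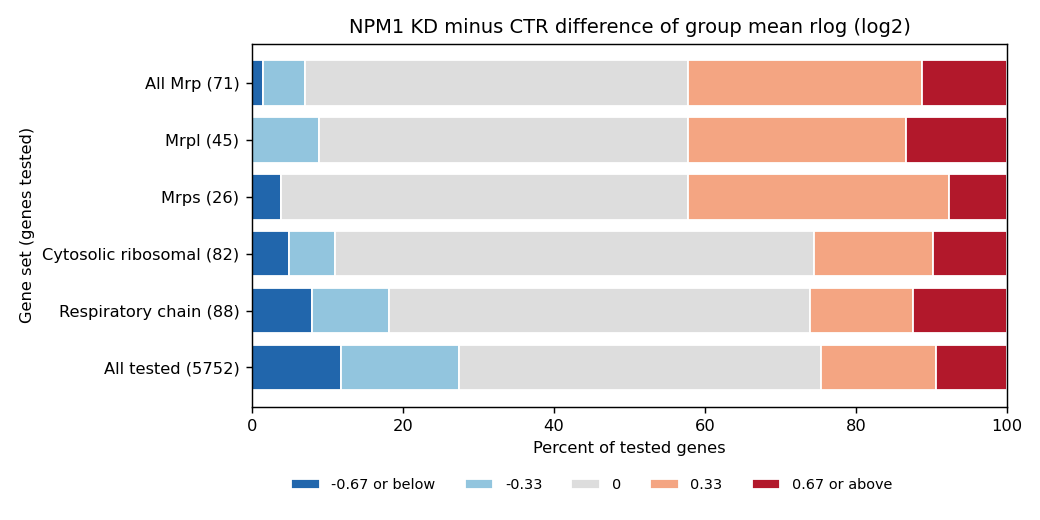
Stacked bars give the percent of tested genes at each log2 difference of group mean rlog values (NPM1 KD minus CTR) for the members, the 2 subunits, 2 comparison groups and all genes tested. The share above 0 is 42.3% for the members, 25.6% for cytosolic ribosomal proteins, 26.1% for respiratory chain subunits and 24.6% for all genes tested.

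Partners of the mitochondrial ribosome and regulators of nuclear genes for mitochondria gave 0 calls at an adjusted p of 0.05 in limma in any list. At an unadjusted p of 0.05 in limma, 2 genes were higher (*Ptcd3* and *Ngrn*) and 2 lower (*Mtg1* and the regulator *Mycn*). Of all genes tested 6.07% were higher and 8.07% lower at this p. Of 5 ribosomal proteins without an *Mrp* symbol 4 were tested. *Ptcd3*, a pentatricopeptide protein of the small subunit, had 5, 6 and 5 in CTR against 6, 6 and 6 in NPM1 KD (log2 difference 0.67, SE 0.34, limma adjusted p = 0.33). *Dap3*, a GTP-binding small subunit protein, had 7, 6 and 7 against 6, 6 and 7. *Chchd1* had 7, 7 and 6 against 7, 7 and 7, and *Aurkaip1* was at 6 in all. These 4 small subunit proteins thus differed by at most 0.67 in different directions.

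Of 29 listed assembly and rRNA modification factors 13 passed the filter, 5 with a higher, 2 with a lower and 6 with an equal mean. One of the equal ones, *Lyrm4*, is in the list but is not such a factor. *Ngrn*, needed for the large ribosomal RNA, had 4, 4 and 4 in CTR against 5, 5 and 4 in NPM1 KD. *Mtg1*, a GTPase of large subunit assembly, had 4, 5 and 5 against 4, 4 and 4. *Gtpbp10*, another such GTPase, had 3, 4 and 3 against 4, 4 and 4. *Ngrn* and *Mtg1* differed by 0.67 and -0.67 on the log2 scale (limma adjusted p = 0.33 for each), and the groups overlapped in all 3 genes.

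Of 18 genes listed for mitochondrial translation 10 were tested, 1 with a higher, 3 with a lower and 6 with an equal mean. The list also holds *Lrpprc*, *Slirp*, *Oxa1l* and *Letm1*, which are not translation factors. *Lrpprc* and *Oxa1l* were among the 3 with a lower mean. *Tufm* and *Tsfm*, the elongation factor and its exchange factor, were at 6 in all 6 libraries. *Lrpprc*, which stabilises mitochondrial mRNAs, and *Guf1*, a ribosome-bound GTPase, each had 4, 4 and 4 against 4, 3 and 3. Of 12 genes of mitochondrial DNA transcription and upkeep 3 were tested, and *Tfam*, which packages the DNA and starts its transcription, was at 5 in all libraries, while *Polg2* and *Ssbp1* were at 6. Below the filter, *Nsun4*, an rRNA methyltransferase, had rlog values of 0.31, 0.19 and 0.21 in CTR against 0.08, 0.08 and 0.07 in NPM1 KD. *Top1mt*, the mitochondrial topoisomerase, had 0.26, 0.26 and 0.34 against 0.15, 0.15 and 0.22. Neither gene overlapped between groups, but their mean normalized counts were 1.09 and 1.15, and neither was tested. The share of genes below the filter without overlap is not given here, and each NPM1 KD library was shallower than each CTR library. Transcripts of mitochondrial DNA were not analysed here, and 0 of the listed symbols began with mt-, the prefix of such genes.

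Of 8 regulators of nuclear genes for mitochondria 5 were tested. *Yy1*, whose motif is named in the promoters, was at 4 in all 6 libraries. *Gabpa*, an ETS factor, had 5, 5 and 5 in CTR against 5, 4 and 5 in NPM1 KD. *Mycn* had 5, 4 and 5 against 4, 4 and 4, a log2 difference of -0.67 (SE 0.33, limma adjusted p = 0.33), while the mean of *Myc* was equal in both groups. *Nrf1* was below the filter with 3, 4 and 3 against 3, 3 and 3.

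The 6 members below the filter could be followed as whole reads, since a mean normalized count this low fits exactly 1 set of whole reads over the 6 size factors. *Mrps18b* had 0, 0 and 0 reads in CTR against 2, 1 and 1 in NPM1 KD, a sum of 4 in the shallower group. *Mrps11* had 3, 3 and 3 against 1, 4 and 7. *Mrpl44*, which has a fold like that of ribonuclease III, had 6, 6 and 4 against 1, 5 and 6 reads. Its normalized reads ran from 1.28 to 6.25 while its rlog value was 2 in every library.

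*Mrpl24* had 2, 5 and 1 reads against 3, 0 and 1, *Mrps34*, a protein needed for a stable small subunit, had 1 read in all, in CTR, and *Mrpl53* had 0. Groups overlapped in these genes, and in *Mrps18b* they did not, at counts that no test was run on. All 6 share exonic bases with another gene on either strand in GENCODE M21 (GRCm38), against 26 of the 71 tested members. *Mrpl53* shares 88.0% of its exonic bases on its own strand and *Mrps34* 37.0%, while 0 tested members share 25% or more there. *Mrps11* shares exonic bases with *Mrpl46* on the other strand, 12.2% of those of *Mrpl46* and 7.97% of its own. How the counting treated reads that touch 2 genes is not given in the sources used here, and the part of shared exons in these low counts, or in the values of *Mrpl46*, was not tested.

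**Figure D5:**
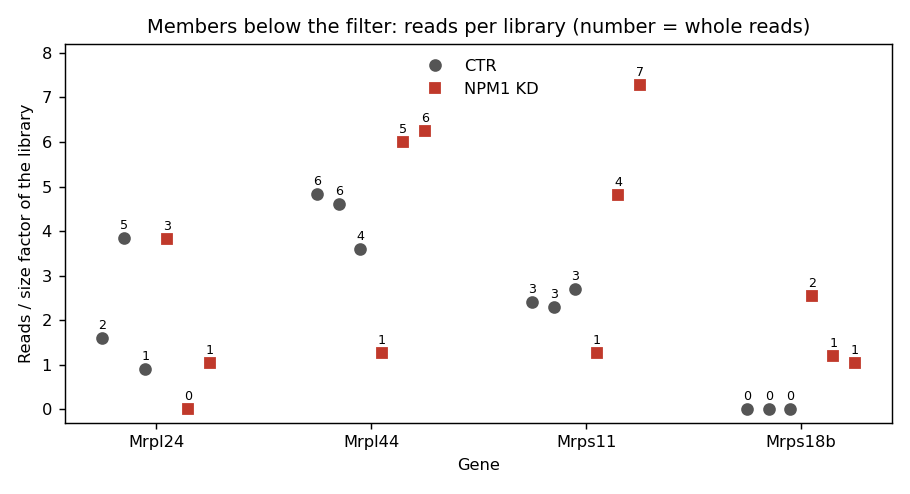
Points give reads divided by the size factor of the library for the 4 members below the filter with more than 1 read in all, with the number of whole reads beside each point. *Mrps18b* has 0 reads in every CTR library and 2, 1 and 1 in NPM1 KD, and the other 3 genes overlap between groups.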

How the data were processed

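RNA of 3 CTR and 3 NPM1 KD libraries was analysed from the tables the authors deposited. The submitters' processing notes name minimap2, featureCounts and DESeq2 and the build GRCm39, while the annotation, versions and parameters are not given in the sources used here. Per the labels, libraries were made with a PCR barcoding cDNA kit and read on a GridION. The deposited rlog score, on the log2 scale, is corrected for library size and pulled towards the mean of a gene, and values outside -1 to 1 are whole numbers, which hides smaller changes. The authors also deposited the mean normalized count of each gene over all libraries, used here as the authors' mean and for size factors, and the log2 fold change, its error, statistic and p-values of their own comparison, which were not used. All columns of values matched a sample.

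The table has 26913 lines, of which 257 repeat an Ensembl ID and were dropped. The filter kept means of at least log2 of 10, and limma 3.58.1 under R 4.3.3 compared the groups (lmFit, eBayes with intensity trend, two-sided, Benjamini-Hochberg over all 5752 genes). Variances within groups under 0.0833, the variance that rounding adds, were raised to it. The fit was tested on simulated data, in which at the smallest spread between replicates more calls were false than the threshold allows. Means of gene sets over a library are descriptions without a test, since genes are not replicates. Total reads per library were not analysed here. The mean normalized counts add up to 841220. Size factors were solved from the mean normalized counts of genes with few reads, of which 4671 of 4671 fitted exactly 1 set of whole reads, and were matched to libraries by the decimals of 1933 genes (correlation of at least 0.99). Intervals of these reads were not computed, and they carry counting error.

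The series description gives 3 biological replicates per condition and the treatment protocol 2, so the spread between these libraries may be partly technical. In the main fit the SE of a gene followed its mean rlog value, not its own spread. *Mrpl46* (SD 0 in both groups) and *Mrpl22* (SD 0.58 in both groups) had the same limma SE of 0.34. The p-values thus rest on a variance shared by genes of like rlog value, not on the spread of the gene itself. No batch or date is given. Same-numbered libraries did not deviate together (correlations of 0.01, 0.00 and 0.03), so replicate numbers were not used as pairs. The members and gene lists were chosen with earlier results of these data known. The assembly list also held *Gtpbp5*, an older name of *Mtg2*, which was counted once. Genes named are *Npm1*, members past the threshold or without overlap between groups, the 5 largest rises and falls in group mean, members of a set list of roles, and partner genes past the threshold or without overlap. Others named (such as *Mrpl16*, *Mrps25*, *Mrpl35*, *Ptcd3*, *Ngrn*, *Mycn* and *Mrpl23-ps1*) were chosen after their values were seen. Alternatives were another variance floor or none, another filter or none, no trend, library means subtracted, a replicate block, subunits by structure, and leaving out each library. Exon overlap was taken from GENCODE M21 (GRCm38) by gene ID and promoters from RefSeq (GRCm38.p6) by symbol, not the build of the counts. Python 3.11.15 was used.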

Additional observations from a re-analysis of the deposited data

How the results depend on the processing

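Rounding to whole numbers sets what these data can show: a gene far from a turning point can change by most of a step and keep its value, and a gene near one can move by a step after a small change. Depth could not be separated from condition, since every NPM1 KD library was shallower. Without the variance floor 123 genes were called higher and 178 lower, among them 2 *Mrp* genes (*Mrpl46* and *Mrpl50*), and 2 *Mrp* genes were higher at an unadjusted p of 0.05. Without the intensity trend 132 genes were called higher and 218 lower, with 3 *Mrp* genes called higher (*Mrpl20*, *Mrpl46* and *Mrpl50*, limma adjusted p = 0.0304). At an unadjusted p of 0.05, 8 *Mrp* genes were then higher and 1 lower. The cause of these shifts was not tested. With a floor of 0.25 there were 0 genes higher and 5 lower, and 3 *Mrp* genes higher at an unadjusted p of 0.05. Without a filter there were 1 and 10, and again 3. With the filter at log2 of 20, 6 *Mrp* genes were higher and 1 was lower at an unadjusted p of 0.05. The shares of all genes tested at this p are not given for these settings. The member counts at this p can therefore not be compared with a background. Subtracting library means gave 57 *Mrp* genes higher without overlap and 66 with a higher group mean, because offsets of the libraries split values that are tied as whole numbers. Such ties are split in all genes tested alike. Their shares in this setting are not given here, so the 57 and 66 cannot be read as a result about the members.

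Leaving out 1 library at a time gave 0 to 2 genes called higher and 5 to 9 lower over all genes tested, and 0 *Mrp* genes called. *Mrp* genes at an unadjusted p of 0.05 numbered 2 to 5 higher and 0 to 1 lower, those without overlap 2 to 5 higher and 0 to 1 lower, and those with a lower group mean 5 to 9. The lower one without overlap was *Mrps21* without CTR replicate 1. Lack of overlap is reached more easily with 2 libraries in a group. The shares of all genes tested without overlap, or at an unadjusted p of 0.05, are not given for these settings. The mean log2 difference ran from 0.13 to 0.22 for *Mrpl* genes, from 0.06 to 0.19 for *Mrps* genes and from -0.003 to 0.08 for the first minus the second. With the replicate number as a block, 1 gene was called higher and 7 lower. At an unadjusted p of 0.05, 3 *Mrp* genes were then higher, and the share of all genes tested is not given here. These pairs share only a number, since their deviations did not go together.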
